A study of Homo sapiens with 4 samples.

Results

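Neuroendocrine lineage genes were followed by RNA sequencing in 4 libraries from 2 human prostate carcinoma lines with and without a stable hairpin against MAOA, which encodes the mitochondrial enzyme monoamine oxidase A. The members were 10 genes out of the 25343 rows of each deposited table, chosen by symbol as neuroendocrine markers (CHGA, CHGB, SYP, ENO2, NCAM1, SCG2, SCG5, INSM1) or as factors of lineage plasticity (SOX2, EZH2), and all 10 were found in both tables. The groups were C4-2B ENZR with the MAOA hairpin (shMAOA), C4-2B ENZR with a hairpin that has no target (shCon), LNCaP with shMAOA and LNCaP with shCon, and each had 1 library. C4-2B ENZR cells resist the antiandrogen enzalutamide, and both of their cultures were kept in 20 µM of it. LNCaP cells respond to androgen, and their medium recipe names no enzalutamide. All cultures had 10% fetal bovine serum and had gone through lentiviral infection and antibiotic selection. Whether selected cells were a pool or a clone, and whether both lines received the same MAOA hairpin, is not stated in the labels.

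Neuroendocrine cells are rare cells of the prostate epithelium that store peptides and amines in dense-core granules, and adenocarcinoma under androgen deprivation can take on some of their features. The granins fill those granules, synaptophysin sits in the membrane of small vesicles, and INSM1 is a transcription factor of the program, while REST represses neuronal genes in other cells. SOX2 and the histone methyltransferase EZH2 have been tied to the loss of luminal identity in prostate cancer.

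The shMAOA and shCon libraries held 23679869 and 23479051 recovered reads for C4-2B ENZR, then 52012696 and 52550452 for LNCaP. The limit which a count of 0 allows, 3 reads, equalled 0.122, 0.121, 0.0614 and 0.0529 CPM in this order, where CPM are read counts relative to library size after the authors' scaling. Each table was scaled on its own, so deposited levels are not compared between lines. MAOA was at 219 CPM with shMAOA against 327 CPM with shCon in C4-2B ENZR (66.8% of control), and at 140 against 445 CPM in LNCaP (31.3%). All 10 luminal prostate markers were above 3 reads in each library, with summed levels between 3411 and 8075 CPM, whereas the 4 basal markers summed to between 0.121 and 1.47 CPM. The 5 stromal markers summed to between 47.4 and 62.9 CPM, mostly COL1A1, which had 44.4 CPM or more in each library, while COL1A2 was at 0 reads in all 4. The 4 leukocyte markers summed to between 10.1 and 25.0 CPM, mostly CD68, while CD3E was at 0 reads. Their part in the results was not tested.

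Promoter sequence was at hand for 6 of the members, in 7 windows that run from 250 bases before to 50 bases after a transcription start (RefSeq, GRCh38.p14). The stretches printed here belong to a granin that was nearly silent, to SCG5, to ENO2 and to EZH2. The ratio of ENO2 lay furthest from equality among the well-measured members. The stretches show where the letters of known response elements, or of their short cores, occur near these start sites. They are written from 5′ to 3′ on the strand of the gene, and capitals mark the motif found. CHGA is shown from -120 to -1 (chr14:92923030-92923149, plus strand) with the cAMP response element TGACGTCA. SCG5 is shown over the same span (chr15:32641590-32641709, plus strand) with TGACG, the short core of that element. ENO2 is shown from -150 to -1 (chr12:6914430-6914579, plus strand) with ACGTG, the core of the hypoxia response element. EZH2 is shown from -110 to 15 (chr7:148884277-148884401, minus strand) with the E2F motif TTTGGCGC.
CHGA: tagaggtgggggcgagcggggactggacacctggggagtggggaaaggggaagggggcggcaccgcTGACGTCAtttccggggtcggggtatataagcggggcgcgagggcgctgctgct
SCG5: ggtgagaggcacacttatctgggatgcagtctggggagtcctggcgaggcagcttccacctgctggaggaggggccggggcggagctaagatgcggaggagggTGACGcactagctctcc
ENO2: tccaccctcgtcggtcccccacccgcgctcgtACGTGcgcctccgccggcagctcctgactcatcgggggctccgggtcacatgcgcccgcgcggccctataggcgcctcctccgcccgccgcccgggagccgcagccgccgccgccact
EZH2: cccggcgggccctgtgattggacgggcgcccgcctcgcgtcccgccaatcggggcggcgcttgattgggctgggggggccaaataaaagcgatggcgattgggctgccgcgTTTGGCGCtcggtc

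Motifs were searched on both strands in all 35116 promoter windows of the same length. TGACGTCA was in 1.85% of all windows and, among the members, in that of CHGA, where it begins 54 bases before the start site. TGACG, which TGACGTCA contains on either strand, was in 24.6% of all windows and in 4 of the 7 member windows (CHGA, SCG5, SOX2 and the other EZH2 window). TTTGGCGC was in 0.652% of all windows and in 1 window of EZH2, beginning at base 2 of the transcript. The E2F forms TTTCCCGC (1.63% of all windows) and TTTCGCGC (0.515%), the E-box CAGCTG (17.9%) and both parts of the REST site, TTCAGCACC (0.376%) and GGACAGC (6.03%), had no match in the 7 windows. ACGTG, searched after the values were seen, was in 21.4% of all windows and in those of ENO2 and SYP. A match describes letters in a window, not binding.

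Reads were few for most members, at shares not far from those over all rows. In all 4 libraries 6 of the 10 genes (CHGA, CHGB, SCG2, SCG5, INSM1 and SOX2) stayed under 1 CPM, as did 41.7% of all 25343 rows. Their reads summed to 20 with shMAOA and 27 with shCon in C4-2B ENZR, and to 29 with shMAOA and 24 with shCon in LNCaP. At or under 3 reads were 4 members in each C4-2B ENZR library, 4 in LNCaP with shMAOA and 5 in LNCaP with shCon, against 34.8%, 34.7%, 31.3% and 30.8% of all rows. CHGB and SOX2 were at or under 3 reads in every library. Among these 6 genes, INSM1 in LNCaP was the one case where a counting interval excluded equality between the hairpins.

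**Figure D1:**
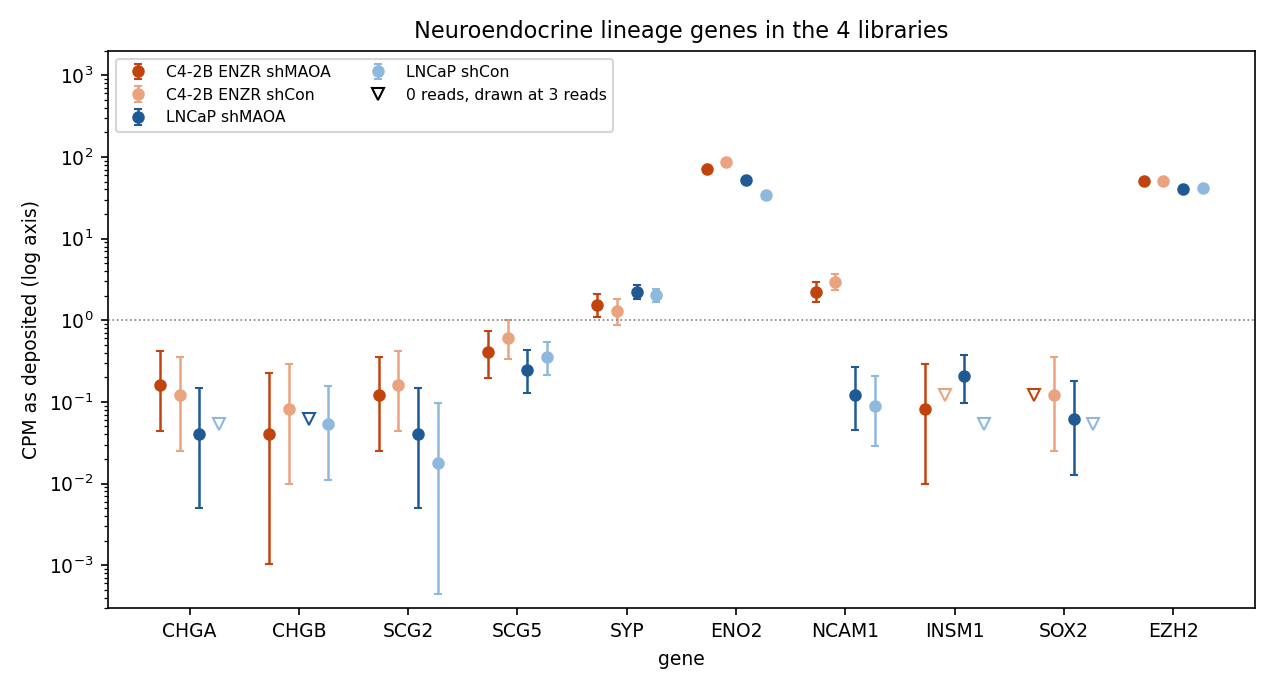
Level of each of the 10 genes in each of the 4 libraries, as deposited CPM on a log axis; bars are exact 95% Poisson intervals of the reads, open triangles are libraries with 0 reads drawn at the level of 3 reads, and the dotted line is 1 CPM. ENO2 and EZH2 lie between 34.6 and 87.1 CPM in every library, SYP between 1.29 and 2.23 CPM, and the granins CHGA, CHGB and SCG2 between 0 and 0.163 CPM.

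Among the granule genes, CHGA, the gene of chromogranin A and the routine marker of neuroendocrine tumours, had 4 reads with shMAOA and 3 with shCon in C4-2B ENZR (0.163 and 0.121 CPM). In LNCaP it had 2 reads with shMAOA and 0 with shCon. The 95% counting interval of its log2 read ratio in C4-2B ENZR ran from -2.14 to 3.19, so no difference was detectable at this depth.

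CHGB, which encodes chromogranin B, had 1 read with shMAOA and 2 with shCon in C4-2B ENZR, and 0 with shMAOA and 3 with shCon in LNCaP. SCG2, the gene of secretogranin II, had 3 reads with shMAOA and 4 with shCon in C4-2B ENZR, and 2 with shMAOA and 1 with shCon in LNCaP. All of these values lie at or near the limit of detection.

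SCG5 encodes 7B2, the chaperone of the prohormone convertase PC2, and had the most reads of the 4 granule members. It had 10 reads with shMAOA and 15 with shCon in C4-2B ENZR (0.407 and 0.607 CPM), and 12 with shMAOA and 20 with shCon in LNCaP (0.246 and 0.352 CPM). The shMAOA library was the lower one in both lines, by log2 read ratios of -0.58 (interval -1.89 to 0.67) and -0.52 (-1.69 to 0.58), and both intervals contain equality. Among genes with 10 to 99 reads summed over the 2 libraries of a line, the interval lay above equality in 5.92% and below it in 4.57% in C4-2B ENZR, and in 10.2% and 7.96% in LNCaP.

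SYP, the gene of synaptophysin, was low but measurable. It was at 1.55 CPM with shMAOA and 1.29 CPM with shCon in C4-2B ENZR (38 and 32 reads), and at 2.23 CPM with shMAOA and 2.03 CPM with shCon in LNCaP (109 and 115 reads). The log2 read ratios of 0.26 (interval -0.46 to 0.98) and 0.14 (-0.25 to 0.53) did not exclude equality. In LNCaP the direction depends on the scaling, since the ratio with a pseudocount of 1 CPM was 0.09 as deposited and -0.04 after subtracting the table's median ratio.

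That median, over genes with a mean of at least 10 CPM, came to -0.01 for C4-2B ENZR and 0.13 for LNCaP, so an LNCaP gene that keeps its place among the others has a ratio of about 0.13. Ratios from here on carry a pseudocount of 1 CPM unless called read ratios, and for LNCaP the value relative to the median is added where it matters.

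ENO2 encodes neuron-specific enolase, a glycolytic enzyme used as a neuroendocrine serum marker that other cell types make as well. It was at 72.0 CPM with shMAOA and 87.1 CPM with shCon in C4-2B ENZR, or 1771 and 2154 reads. In LNCaP it was at 52.8 CPM with shMAOA and 34.6 CPM with shCon, or 2578 and 1961 reads. The shMAOA library was thus the lower one in C4-2B ENZR, at 82.7% of control, and the higher one in LNCaP, at 153% of control.

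The log2 ratio of ENO2 was -0.27 in C4-2B ENZR (read-ratio interval -0.37 to -0.18) and 0.60 in LNCaP (0.53 to 0.70), or 0.46 relative to the LNCaP median. Intervals that exclude equality are common at this depth and cover counting error only. In C4-2B ENZR 21.5% of genes with a mean of at least 1 CPM had an interval above equality and 21.7% below, with ENO2 the 1 of 4 measured members among the lower ones. In LNCaP 49.1% lay above and 19.2% below, with ENO2 the 1 of 3 measured members among the higher ones. Intervals on opposite sides of equality in the 2 lines, as for ENO2, were found for 7.88% of the genes measured in both tables, and 6.26% also kept opposite signs relative to each table's median, as ENO2 did. Whether the effect of the hairpin differed between the lines was not tested, since each line and hairpin has a single library.

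NCAM1, the gene of the adhesion molecule CD56, passed the filter on low values in C4-2B ENZR alone, with 55 reads with shMAOA and 73 with shCon (2.24 and 2.95 CPM; log2 read ratio -0.40, interval -0.93 to 0.12). In LNCaP it had 6 reads with shMAOA and 5 with shCon (0.123 and 0.0881 CPM). The intervals contain equality in both lines.

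INSM1, a zinc-finger transcription factor of endocrine cells, had 2 reads with shMAOA and 0 with shCon in C4-2B ENZR. In LNCaP it had 10 reads with shMAOA (0.205 CPM) and 0 with shCon, and the counting interval of its log2 read ratio begins at 1.38. This rests on 10 reads among 52012696, in the range of reads where 10.2% of LNCaP genes had an interval above equality. SOX2, a pluripotency factor, had 0 reads with shMAOA and 3 with shCon in C4-2B ENZR, and 3 with shMAOA and 0 with shCon in LNCaP, so all 4 values lie within the limit that a count of 0 allows.

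EZH2, the catalytic subunit of Polycomb repressive complex 2, was at 50.9 CPM with shMAOA and 51.3 CPM with shCon in C4-2B ENZR (1251 and 1269 reads), and at 40.3 CPM with shMAOA and 41.1 CPM with shCon in LNCaP (1970 and 2334 reads). As deposited, the hairpins lay close together in both lines. The log2 read ratios were -0.01 (interval -0.13 to 0.10) and -0.03 (-0.12 to 0.06). In LNCaP the distance depends on the scaling. The ratio with the pseudocount was -0.16 relative to the LNCaP median, -0.22 when scaled to recovered reads and -0.14 with TMM recomputed.

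**Figure D2:**
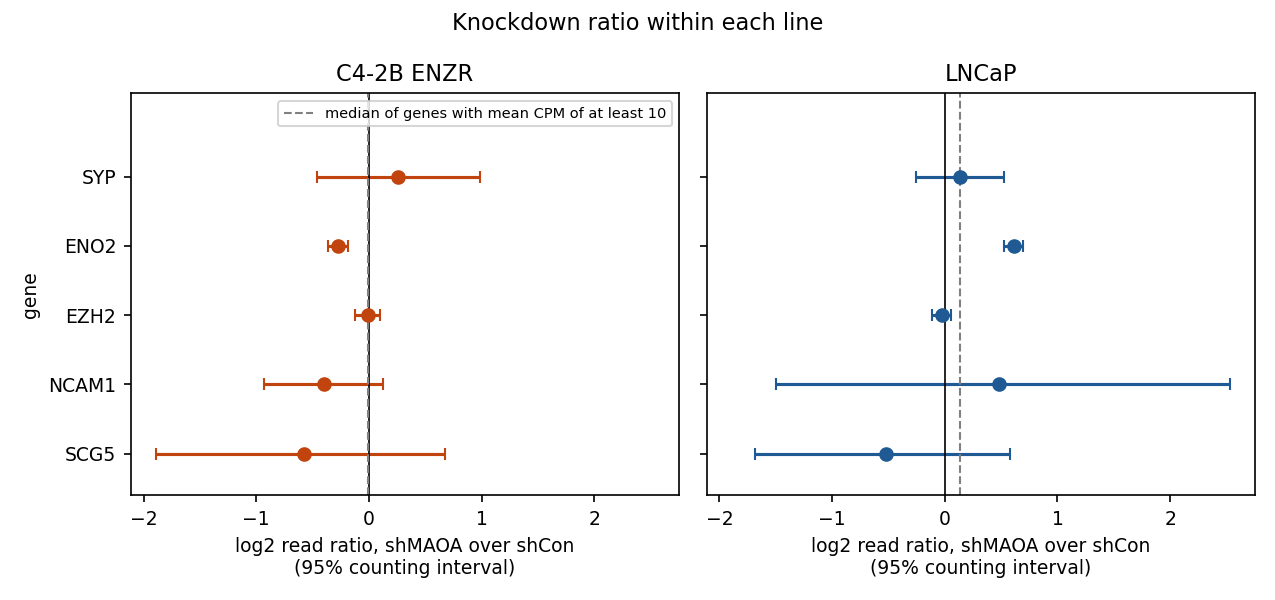
Log2 read ratio of shMAOA over shCon within each line for the 5 members with more than 3 reads in every library; bars are exact 95% counting intervals, the solid line is equality and the dashed line the median ratio of genes with a mean of at least 10 CPM. ENO2 lies below equality in C4-2B ENZR (-0.27) and above it in LNCaP (0.61), and the intervals of SYP, EZH2, NCAM1 and SCG5 cross equality in both lines.

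A 2-fold difference was reached by 0 of the 4 members measured in C4-2B ENZR (0.442% of 13810 genes with a mean of at least 1 CPM did so) and by 0 of the 3 measured in LNCaP (0.834% of 13787 genes). SYP, ENO2 and EZH2 passed the filter in both tables and were tested over the lines with limma, in which 5.71% of 13114 genes passed at an adjusted p of 0.05 (4.22% rose and 1.49% fell). Of these 3 members 0 passed, 0 had an unadjusted p under 0.05, and 0 passed in edgeR. DESeq2 gave no adjusted p for SYP, and ENO2 and EZH2 did not pass in it. The mean log2 ratios were 0.12 for SYP (SE 0.19, limma adjusted p = 0.794), 0.16 for ENO2 (SE 0.13, adjusted p = 0.535) and -0.02 for EZH2 (SE 0.13, adjusted p = 0.957). The mean of ENO2 joins ratios of opposite sign, and its SE is mostly a spread pooled over genes, so it hardly measures that gap.

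The rest of the secretory pathway was read from lists of related genes, in which "rose" and "fell" mean passing limma over both lines. For edgeR, "TMM recomputed" means scaling over the 4 libraries together, and for limma it means scaling within each table. Of 16 granule proteins and processing enzymes, CHGA, CHGB, SCG2 and SCG5 included, 6 were tested and 1 rose. That gene was PAM, whose product amidates peptide hormones, at 15.9 CPM with shMAOA against 9.58 with shCon in C4-2B ENZR, and 10.1 against 5.48 CPM in LNCaP, with a mean log2 ratio of 0.72 (SE 0.16, limma adjusted p = 0.000547; edgeR with TMM recomputed, adjusted p = 0.0278). CPE, the carboxypeptidase that trims prohormones and the most abundant gene of the list, was at 60.4 CPM with shMAOA against 54.6 with shCon in C4-2B ENZR, and 44.8 against 31.1 CPM in LNCaP, without passing (limma adjusted p = 0.11). PCSK1N, a convertase inhibitor, was at 14.27 CPM with shMAOA against 15.003 with shCon in C4-2B ENZR, and 37.4 against 33.1 CPM in LNCaP. BEX1 was at 55.8 CPM with shMAOA against 49.3 with shCon in C4-2B ENZR, and 2.19 against 2.61 CPM in LNCaP. The convertase genes PCSK1 and PCSK2 had at most 2 reads in any library. List medians were 0.08 for C4-2B ENZR and 0.34 for LNCaP, beside 0.00 and 0.11 over all genes measured.

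Of 14 genes of synaptic vesicles and exocytosis, SYP included, 10 were tested, 1 rose and 0 fell. SYT4, a synaptotagmin gene and the most abundant of the list, was at 398 CPM with shMAOA against 465 with shCon in C4-2B ENZR, and 1091 against 1153 CPM in LNCaP. RIMS1, a scaffold of vesicle release sites, was at 6.59 CPM with shMAOA against 11.9 with shCon in C4-2B ENZR, and 1.80 against 2.15 CPM in LNCaP. It did not pass (limma adjusted p = 0.0865), though it did after centring on the table medians, with a negative mean (0.0472). SYN2, a synapsin gene, was at 3.46 CPM with shMAOA against 2.06 with shCon in C4-2B ENZR, and 3.77 against 3.45 CPM in LNCaP. List medians were 0.10 for C4-2B ENZR and 0.46 for LNCaP.

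Of 16 neuronal markers of the cytoskeleton, enzymes and adhesion, ENO2 and NCAM1 included, 6 were tested, 1 rose and 1 fell. DDC, the decarboxylase that makes dopamine and serotonin, was at 38.9 CPM with shMAOA against 22.7 with shCon in C4-2B ENZR, and 19.7 against 3.88 CPM in LNCaP, with a mean log2 ratio of 1.42 (SE 0.15, limma adjusted p = 5.85e-15; edgeR with TMM recomputed, adjusted p = 0.00442). TUBB3, a neuronal beta-tubulin gene, was at 5.33 CPM with shMAOA against 8.61 with shCon in C4-2B ENZR, and 66.5 against 80.1 CPM in LNCaP, with a mean log2 ratio of -0.43 (SE 0.14, limma adjusted p = 0.0407; edgeR with TMM recomputed, adjusted p = 0.0405). NEFL, a neurofilament gene measured in LNCaP alone, was there at 1.15 CPM with shMAOA and 1.62 CPM with shCon. List medians were -0.27 for C4-2B ENZR and 0.13 for LNCaP.

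Of 15 neuropeptides and receptors 2 were tested, and neither passed in limma or edgeR. GAL, the galanin gene, was at 55.7 CPM with shMAOA against 50.1 with shCon in C4-2B ENZR, and 53.2 against 59.5 CPM in LNCaP. SSTR2, a somatostatin receptor gene, was at 3.21 CPM with shMAOA against 3.36 with shCon in C4-2B ENZR, and 2.44 against 2.20 CPM in LNCaP. CALCA, the calcitonin gene, was measured in C4-2B ENZR alone, with 2.89 CPM with shMAOA and 1.17 CPM with shCon (log2 0.84).

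Transcription and splicing factors of the neuroendocrine program gave no call. Of 18 such genes, INSM1 included, 7 were tested and 0 passed in limma or in edgeR with TMM recomputed. NEUROD1 and ST18 were at 0 reads in all 4 libraries, and MYCN had at most 1. HES6, which encodes an inhibitor of HES1, was at 15.29 CPM with shMAOA against 12.01 with shCon in C4-2B ENZR, and 150.1 against 131 CPM in LNCaP. SIAH2, a ubiquitin ligase gene, was at 65.2 CPM with shMAOA against 61.9 with shCon in C4-2B ENZR, and 68.2 against 52.8 CPM in LNCaP. NKX2-1, a lung and thyroid factor, was at 0.813 CPM with shMAOA and 1.25 CPM with shCon in C4-2B ENZR. PEG10, a retrotransposon-derived gene, was at 10.5 CPM with shMAOA against 6.31 with shCon in C4-2B ENZR, and 1.37 against 3.22 CPM in LNCaP, with log2 ratios of 0.65 and -0.83.

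REST, the repressor of neuronal genes, was at 75.4 CPM with shMAOA against 74.1 with shCon in C4-2B ENZR, and 70.9 against 60.7 CPM in LNCaP. Its log2 ratios were 0.02 and 0.22, and the second is 0.09 relative to the LNCaP median. Of 10 repressors and Notch genes 9 were tested, 2 rose and 1 fell. HES1, a Notch target that represses neural factors, was at 29.0 CPM with shMAOA against 25.0 with shCon in C4-2B ENZR, and 43.0 against 23.1 CPM in LNCaP, with a mean log2 ratio of 0.54 (SE 0.14, limma adjusted p = 0.00489; edgeR with TMM recomputed, adjusted p = 0.0549). The receptor gene NOTCH1 was at 43.0 CPM with shMAOA against 40.4 with shCon in C4-2B ENZR, and 215 against 132 CPM in LNCaP, with a mean of 0.40 (SE 0.12, limma adjusted p = 0.0345; edgeR with TMM recomputed, adjusted p = 0.106). The ligand gene JAG1 was at 18.87 CPM with shMAOA against 33.04 with shCon in C4-2B ENZR, and 17.2 against 20.03 CPM in LNCaP, with a mean of -0.49 (SE 0.14, limma adjusted p = 0.017; edgeR with TMM recomputed, adjusted p = 0.0357). All 3 calls were lost in DESeq2 and in limma with TMM recomputed. The rise of NOTCH1 lay mostly in LNCaP, with log2 ratios of 0.09 in C4-2B ENZR and 0.70 in LNCaP. So did that of HES1, with 0.21 and 0.87 in the same order. The fall of JAG1 lay mostly in C4-2B ENZR, with -0.78 there and -0.21 in LNCaP. PTBP1, a splicing repressor gene, was at 403 CPM with shMAOA against 476 with shCon in C4-2B ENZR, and 375 against 367 CPM in LNCaP.

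Around SOX2, 8 of 14 plasticity and stem cell factors were tested and SOX9 rose. SOX9, which normal prostate epithelium also uses, was at 28.5 CPM with shMAOA against 21.3 with shCon in C4-2B ENZR, and 40.2 against 29.2 CPM in LNCaP, with a mean log2 ratio of 0.42 (SE 0.14, limma adjusted p = 0.037; edgeR with TMM recomputed, adjusted p = 0.0808). SOX4, a related factor gene, was at 152 CPM with shMAOA against 213 with shCon in C4-2B ENZR, and 435 against 340 CPM in LNCaP. SOX11 was at 4.64 CPM with shMAOA against 3.88 with shCon in C4-2B ENZR, and 6.96 against 7.33 CPM in LNCaP.

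Around EZH2, all 14 genes of Polycomb repressive complex 2 and its opposing enzymes were tested, and 3 rose. EZH1, the other catalytic subunit, was at 36.4 CPM with shMAOA against 28.2 with shCon in C4-2B ENZR, and 39.3 against 27.9 CPM in LNCaP, with a mean log2 ratio of 0.42 (SE 0.13, limma adjusted p = 0.0376; edgeR with TMM recomputed, adjusted p = 0.0797). PHF1, an accessory subunit, was at 24.8 CPM with shMAOA against 22.4 with shCon in C4-2B ENZR, and 71.4 against 39.6 CPM in LNCaP, with a mean of 0.49 (SE 0.13, limma adjusted p = 0.0103; edgeR with TMM recomputed, adjusted p = 0.0696). KDM6B, a demethylase that removes the mark EZH2 places, was at 195 CPM with shMAOA against 194 with shCon in C4-2B ENZR, and 509 against 271 CPM in LNCaP, with a mean of 0.45 (SE 0.14, limma adjusted p = 0.0232; edgeR with TMM recomputed, adjusted p = 0.14) that rests on LNCaP. None of these 3 passed in edgeR with TMM recomputed. The rise of PHF1 also lay mostly in LNCaP, with log2 ratios of 0.14 in C4-2B ENZR and 0.84 in LNCaP. EED, a core subunit, was at 25.7 CPM with shMAOA against 28.8 with shCon in C4-2B ENZR, and 12.7 against 14.7 CPM in LNCaP. The histone chaperone gene RBBP4 was at 402 CPM with shMAOA against 403 with shCon in C4-2B ENZR, and 349 against 282 CPM in LNCaP. List medians were 0.05 for C4-2B ENZR and 0.13 for LNCaP.

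EZH2 is transcribed with the cell cycle in many cells. Of 16 proliferation genes 7 fell and 0 rose, beside 1.49% and 4.22% of all genes tested, and 13 fell after centring on the table medians. The list had medians of -0.26 in C4-2B ENZR and -0.51 in LNCaP, beside -0.01 and -0.03 for EZH2. Relative to the LNCaP median, the LNCaP values were -0.65 for the list and -0.16 for EZH2. BIRC5, the survivin gene, had the lowest ratio of the list in both lines, at 84.4 CPM with shMAOA against 175 with shCon in C4-2B ENZR, and 26.6 against 104 CPM in LNCaP. PCNA, the sliding clamp of replication, was at 108 CPM with shMAOA against 183 with shCon in C4-2B ENZR, and 40.7 against 83.8 CPM in LNCaP. CDK1, a mitotic kinase gene, was at 321 CPM with shMAOA against 329 with shCon in C4-2B ENZR, and 172 against 176 CPM in LNCaP, without passing (limma adjusted p = 0.922). RRM2, a ribonucleotide reductase gene, was at 141 CPM with shMAOA against 192 with shCon in C4-2B ENZR, and 123 against 121 CPM in LNCaP, also without passing. The replication and mitosis genes MCM4, MCM5, MCM7, CCNB1 and PLK1 also fell, with mean log2 ratios between -0.61 and -0.42. The distance between EZH2 and that list was not tested. Of 9 tumour suppressors and kinases tied to neuroendocrine prostate cancer, CDKN1B rose and AURKA fell. CDKN1B, the p27 gene, was at 78.3 CPM with shMAOA against 73.7 with shCon in C4-2B ENZR, and 146 against 85.6 CPM in LNCaP, with a mean log2 ratio of 0.42 (SE 0.12, limma adjusted p = 0.0208; edgeR with TMM recomputed, adjusted p = 0.0998). Its rise lay mostly in LNCaP, with log2 ratios of 0.09 in C4-2B ENZR and 0.76 in LNCaP. AURKA, a mitotic kinase gene, was at 76.0 CPM with shMAOA against 90.5 with shCon in C4-2B ENZR, and 35.5 against 50.8 CPM in LNCaP, with a mean of -0.38 (SE 0.12, limma adjusted p = 0.0496; edgeR with TMM recomputed, adjusted p = 0.0424). DNMT1, the maintenance DNA methyltransferase gene, was at 253 CPM with shMAOA against 287 with shCon in C4-2B ENZR, and 153 against 197 CPM in LNCaP. It did not pass in limma, but fell after centring (adjusted p = 0.0169). With TMM recomputed within each table, limma kept the calls of PAM, DDC, BIRC5, PCNA, MCM5, CCNB1 and PLK1 among the genes named from the lists, and those of TUBB3, HES1, NOTCH1, JAG1, SOX9, EZH1, PHF1, KDM6B, CDKN1B, AURKA, MCM4 and MCM7 were lost. DESeq2 kept DDC and the 7 proliferation genes that fell, and lost the calls of PAM (adjusted p = 0.0893), TUBB3, HES1, NOTCH1, JAG1, SOX9, EZH1, PHF1, KDM6B, CDKN1B and AURKA.

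**Figure D3:**
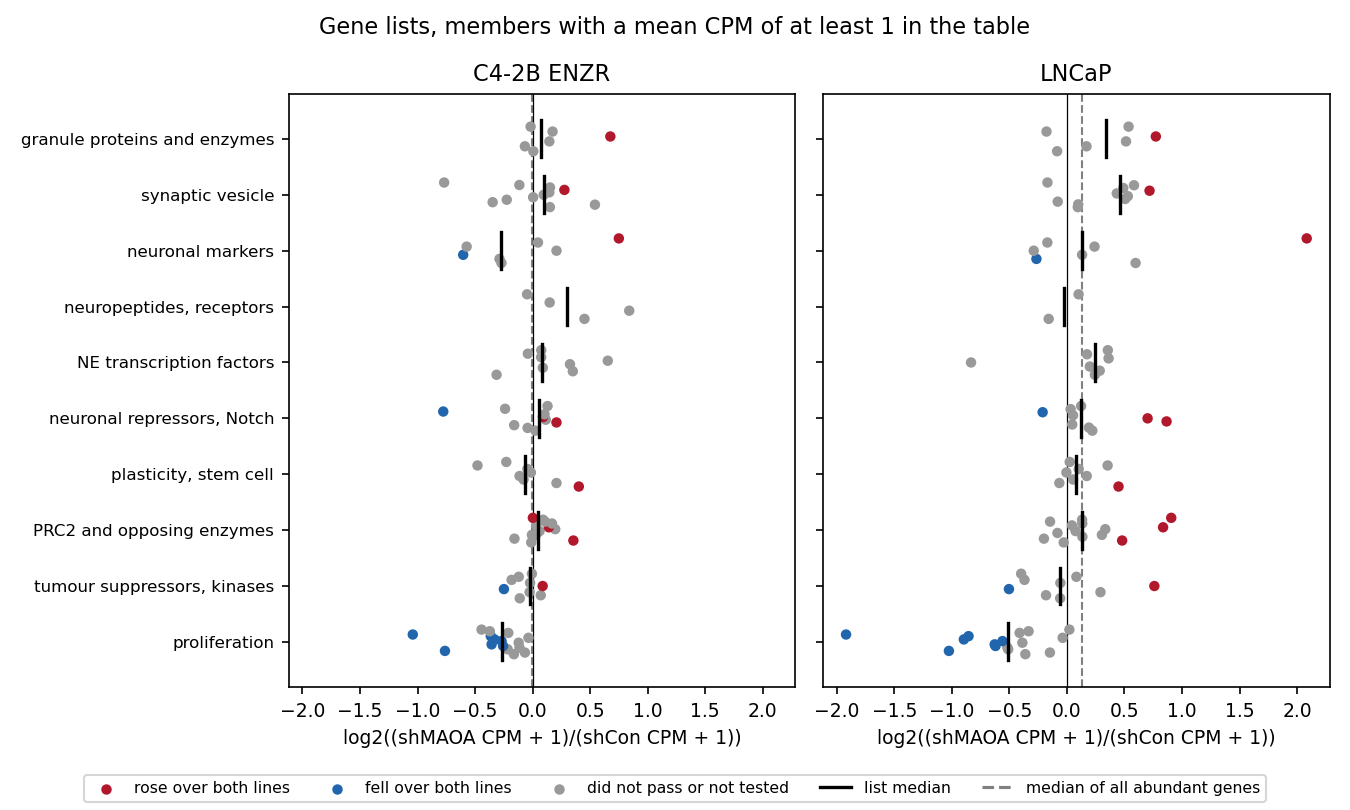
Log2 ratio of shMAOA over shCon, with a pseudocount of 1 CPM, for each gene of the 10 lists that had a mean of at least 1 CPM in the table, C4-2B ENZR left and LNCaP right; red and blue mark genes that rose or fell over both lines in limma, black bars are list medians and dashed lines the median ratio of genes with a mean of at least 10 CPM. DDC reaches 2.08 in LNCaP, and the proliferation medians stand at -0.26 and -0.51.

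For a comparison between the lines, recovered reads of the 4 libraries were scaled together by TMM. There was 1 library per line and hairpin, and line, enzalutamide in the medium and a suffix of the library labels cannot be told apart. Of the members, 4 had a mean of at least 1 CPM across the lines. NCAM1 passed this filter only through C4-2B ENZR, so that its 2-fold difference follows from the filter. Of the other 3, SYP, ENO2 and EZH2, 0 were 2-fold apart in the shMAOA libraries, where 8.89% of 14025 genes were 2-fold higher in C4-2B ENZR and 12.5% lower. In the shCon libraries ENO2 was 2-fold higher, beside 7.29% of 14039 genes that were higher and 12% that were lower.

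Among the members with more than 3 reads in every library, NCAM1 stood furthest apart, with 6 reads in LNCaP with shMAOA and 5 with shCon. It passed the filter only through C4-2B ENZR. With shMAOA it was at 2.19 CPM in C4-2B ENZR and 0.127 CPM in LNCaP on the joint scale, 17.3-fold higher in C4-2B ENZR. With shCon it was at 2.90 CPM in C4-2B ENZR and 0.0987 CPM in LNCaP, 29.3-fold higher. The counting intervals of the log2 read ratios were 2.90 to 5.62 and 3.59 to 6.54, and they overlap between the hairpins.

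ENO2 was at 70.5 CPM in C4-2B ENZR against 54.4 in LNCaP with shMAOA, and 85.5 against 38.7 CPM with shCon. The log2 ratios were 0.37 with shMAOA and 1.12 with shCon, so ENO2 was past 2-fold in the shCon libraries and not in the shMAOA libraries. SYP was the lower one in C4-2B ENZR, at 1.51 CPM in C4-2B ENZR against 2.30 in LNCaP with shMAOA, and 1.27 against 2.27 CPM with shCon. Its log2 read ratios were -0.61 (interval -1.18 to -0.06) and -0.84 (-1.45 to -0.26). EZH2 was at 49.8 CPM in C4-2B ENZR against 41.6 in LNCaP with shMAOA, and 50.3 against 46.1 CPM with shCon, with log2 ratios of 0.25 and 0.13.

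**Figure D4:**
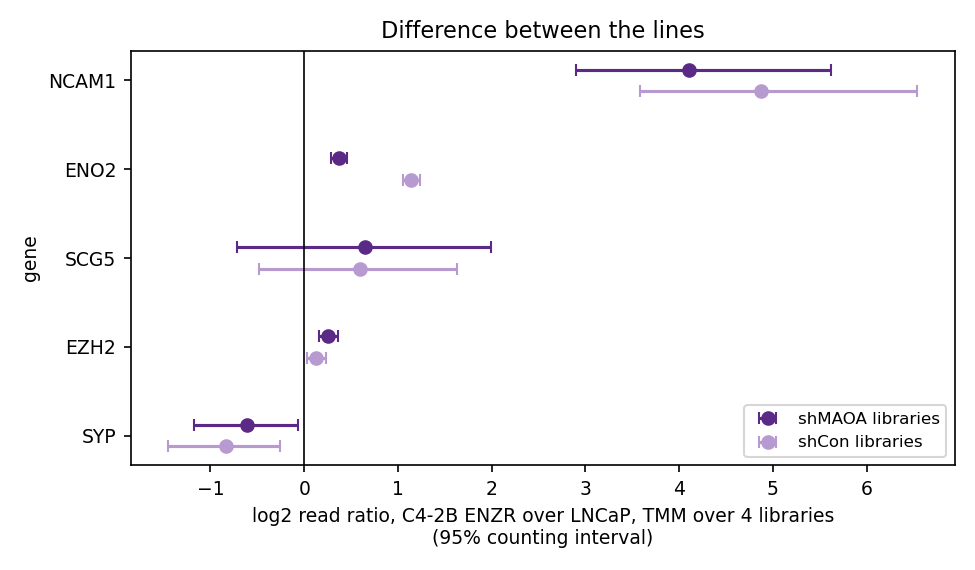
Log2 read ratio of C4-2B ENZR over LNCaP, scaled by TMM over the 4 libraries, for the 5 members with more than 3 reads in every library, in the shMAOA and shCon libraries; bars are exact 95% counting intervals. NCAM1 lies at 4.11 with shMAOA and 4.88 with shCon, and the intervals of SCG5 cross equality.

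TUBB3, BEX1, KLK3 and REST are given on the same scale as examples and do not stand for the lists. With shCon, 7.29% of all genes were 2-fold higher in C4-2B ENZR and 12% lower. TUBB3 was at 5.21 CPM in C4-2B ENZR against 68.6 in LNCaP with shMAOA, and 8.45 against 89.7 CPM with shCon. BEX1 was at 54.6 CPM in C4-2B ENZR against 2.26 in LNCaP with shMAOA, and 48.4 against 2.92 CPM with shCon. KLK3, which encodes prostate-specific antigen, was at 6.21 CPM in C4-2B ENZR against 2803 in LNCaP with shMAOA, and 3.65 against 2679 CPM with shCon. REST was at 73.8 CPM in C4-2B ENZR against 73.2 in LNCaP with shMAOA, and 72.7 against 68.0 CPM with shCon, which puts the repressor at similar levels in both lines.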

How the data were processed

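The submitters' processing notes name Bowtie2 2.1.0, RSEM 1.2.15, edgeR and the hg19 build; no source used here gives an edgeR version, an annotation or a filter. Per the labels' protocols, total RNA was sequenced as single reads of 50 nt. The authors deposited CPM named as scaled by TMM, in 1 table per line. Beyond library size, the deposited scaling shifts the log2 ratio of shMAOA over shCon by 0.02 in C4-2B ENZR and 0.20 in LNCaP. TMM recomputed on recovered reads within each table gives 0.02 and 0.08. The source of the LNCaP difference is not known. The deposited LNCaP column of the knockdown sums to 1064501, so its unit is recorded as a signal on the CPM scale.

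Reads were recovered, since every value (100%, to within 0.01 read) is a whole number of steps of 1 read. Within a line the effect was log2 of (shMAOA CPM + 1)/(shCon CPM + 1), which understates changes of low genes, with exact conditional (Clopper-Pearson) 95% intervals of the read ratio. These and the Poisson intervals cover counting error only. With 1 library per group there is no test within a line. Both lines were tested together in limma 3.58.1 (R 4.3.3), using the ratio from each line, for 13114 genes that averaged 1 CPM or more in each table, with 1 residual and 276 prior degrees of freedom and Benjamini-Hochberg adjustment over all of them. Its p-values mostly weigh the mean ratio against a gene-wide spread, and the labels do not show separate cultures within a group. edgeR 4.0.16 and DESeq2 1.42.0 on recovered reads were alternatives. Named genes were all members, MAOA, REST and KLK3 and, per list, those past limma, the highest and lowest ratio per line and the most abundant, except for some genes that are not reported here. The members, lists and motifs were chosen with earlier results of these data known.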

Additional observations from a re-analysis of the deposited data

Results flagged for a closer look

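Of 87 listed genes measured in both tables, 7 (8.05%) had counting intervals on opposite sides of equality in the 2 lines and ratios of opposite sign after subtracting each table's median. By the same rule the share over all genes measured in both tables was 6.26%, so the count is near the background. The difference between the lines was not tested for any of them. Log2 ratios of shMAOA over shCon are given for C4-2B ENZR and then for LNCaP. ENO2, the enolase gene, had -0.27 and 0.60. PEG10 had 0.65 and -0.83, the widest gap of the 6 genes given here. SOX4, a transcription factor gene, had -0.48 and 0.35, and RAB3B, a GTPase gene of secretory vesicles, had -0.12 and 0.58. GAL had 0.15 and -0.16, and C17orf96, a Polycomb-associated gene, had 0.11 and -0.15.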

How the results depend on the processing

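The number of members 2-fold apart within a line, and of members that rose or fell over both lines, was 0 under every alternative run. For the 6 members under 1 CPM in every library, the 2-fold count was fixed in advance. The filter left them out, and the run without it kept the pseudocount of 1 CPM. With a pseudocount of 0.1 and outside the filter, INSM1 in LNCaP stood at 1.61 (10 reads against 0). SOX2 in C4-2B ENZR stood at -1.15 (0 reads against 3). Subtracting the LNCaP median turned the sign of the small LNCaP ratios of CHGA, NCAM1, SCG2, SOX2 and SYP. When scaled to recovered reads, the LNCaP ratio of SYP turned (-0.04). Those of CHGA, NCAM1, SCG2 and SOX2 stayed positive, between 0.03 and 0.08. The mean of ENO2 was -0.27 without LNCaP and 0.60 without C4-2B ENZR, with no test. The LNCaP ratio of ENO2 was 0.60 as deposited, 0.46 after centring, 0.40 when scaled to recovered reads and 0.48 with TMM recomputed. That of EZH2 was -0.03, -0.16, -0.22 and -0.14 in the same order. Between the shCon libraries 2 members (ENO2, and NCAM1 through the filter) were 2-fold higher in C4-2B ENZR, against 1 with a pseudocount of 5, 1 at a minimum mean of 5 CPM and 1 between the shMAOA libraries. Counts over all genes moved. In C4-2B ENZR 40 genes were 2-fold higher with shMAOA and 21 lower, against 90 and 45 with a pseudocount of 0.1, 18 and 6 with a pseudocount of 5, and 26 and 9 at a minimum mean of 5 CPM. In LNCaP 80 were higher and 35 lower, against 163 and 76 with a pseudocount of 0.1, 40 and 6 with a pseudocount of 5, 48 and 58 after centring, 41 and 67 when scaled to recovered reads, 52 and 51 with TMM recomputed, and 70 and 19 at a minimum mean of 5 CPM. Over both lines 554 rose and 195 fell in limma, against 578 and 543 after centring, 351 and 653 when scaled to recovered reads, 155 and 108 with TMM recomputed, 14 and 6 without a filter, 256 and 209 in edgeR with TMM over 4 libraries, and 132 and 90 in DESeq2. With the deposited scaling, 584 rose and 205 fell in edgeR. Between the shCon libraries 1023 genes were higher and 1682 lower in C4-2B ENZR, against 546 and 1047 with a pseudocount of 5. The cause was not tested. The labels give no replicate numbers, so no further block could be fitted, and limma already pairs the libraries of a line. Depth limits the 6 genes under 1 CPM to statements about detection.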

Other observations

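Several genes of the lists that were too sparse for the tests had read counts apart in 1 line or, for PTHLH, in both. They were picked after their values were seen, and in LNCaP 10.2% of all genes with 10 to 99 summed reads had an interval above equality and 7.96% below, while in C4-2B ENZR these shares were 5.92% and 4.57%. NEUROG3, a transcription factor of endocrine cells, had 9 reads with shMAOA and 1 with shCon in LNCaP (log2 read ratio 3.39, interval 0.53 to 8.84). The bombesin receptor gene GRPR was lower with shMAOA in LNCaP, with 23 reads with shMAOA and 78 with shCon (-1.55, interval -2.28 to -0.86), with a sum just above that range.

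In C4-2B ENZR the neuronal splicing factor gene SRRM4 had 1 read with shMAOA and 12 with shCon (-3.58, interval -8.99 to -0.82). PTHLH, the gene of parathyroid hormone-related protein, had more reads with shMAOA in both lines, 35 against 12 in C4-2B ENZR (1.55, interval 0.57 to 2.63) and 23 against 8 in LNCaP (1.74, interval 0.53 to 3.11).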
